A study of Mus musculus with 8 samples.

Results

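The chemical mark N6-methyladenosine (m6A) is placed on, read from and removed from RNA by a small set of proteins, and 10 genes of this set were followed here in the neonatal mouse testis: the writer genes *Mettl3*, *Mettl14*, *Wtap* and *Zc3h13*, the reader genes *Ythdc1*, *Ythdf1*, *Ythdf2* and *Ythdf3*, and the eraser genes *Alkbh5* and *Fto*. They were picked by name for their role in the pathway, and all 10 were found among the 40840 genes of the count tables. RNAseq was done on the whole testis of each of 8 mice at 12 days of age (P12), of which 4 were wild type and 4 were *Tra2b-cPEko*, all on a C57BL/6J background. Mice called wild type carried one floxed and one unmodified *Tra2b* allele (Tra2bPE fl/+) and no Cre. The *Tra2b-cPEko* mice carried *Vasa-Cre* with one floxed allele and one allele from which the poison exon had already been deleted (Tra2bPE fl/-). *Vasa-Cre* is active in germ cells from before birth, so that germ cells lost the exon while somatic cells of the testis kept it on the floxed allele. Samples were whole testes of mixed cell types, taken when the most advanced germ cells were near the zygotene to pachytene boundary. A poison exon brings a premature stop codon into an mRNA, and the one in *Tra2b* limits the amount of the splicing activator Tra2β.

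In the nucleus, METTL3 transfers the methyl group to adenosine, METTL14 holds the RNA beside it, and WTAP and ZC3H13 keep the complex in nuclear speckles. YTHDC1 reads the mark in the nucleus, where it acts in splicing and export, and the 3 YTHDF proteins read it in the cytoplasm, where they act on translation and decay of the mRNA. ALKBH5 and FTO are demethylases that take the mark off again. In mouse male germ cells the loss of the methyltransferases disturbs spermatogonia and meiosis, and mice without *Alkbh5* have impaired spermatogenesis. The authors reported altered splicing in whole testes after deletion of the *Tra2b* poison exon. The comparison therefore asked whether this deletion went with altered expression of the m6A machinery.

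Genes took between 36757386 and 59101569 reads in each mouse, and levels are given as CPM, the reads on a gene scaled to a common library size. The wild type mean of *Tra2b* itself was 164 ± 8.93 CPM and the *Tra2b-cPEko* mean 198 ± 8.49 CPM (SD, n = 4 each), although counts over the whole gene cannot show whether the poison exon is present. Markers of Sertoli cells and of leptotene and zygotene spermatocytes were present in every library, and of 5 spermatid genes 2 were at 0 throughout, with a summed level of at most 0.431 CPM. Summed over 5 markers of differentiating spermatogonia, levels were between 459.9 and 499 CPM in wild type and between 395 and 456 CPM in *Tra2b-cPEko* mice. Marker sums were scaled to the reads on genes alone, without the normalisation factors (TMM) used for single genes. The factors of the nearest mice, 1.007 for wild type replicate B and 0.998 for *Tra2b-cPEko* replicate B, would lessen the narrow gap. The separation of these sums is therefore not firm. By edgeR 1 of the 5 was called lower, against 0.0262% of all genes tested. Taken singly, 1 of the 5 did not overlap between genotypes, against 8.54% of all genes tested. The 6 macrophage markers, none of them called, summed to 103 to 123 CPM in wild type and 124 to 151 CPM in *Tra2b-cPEko* mice, but each of the 6 overlapped singly. The sums of the other 8 marker lists overlapped between genotypes. Taken singly, 1 of 6 pachytene, 1 of 7 Sertoli and 1 of 6 Leydig genes tested did not overlap, and none was called. Median log2 fold changes of *Tra2b-cPEko* over wild type in these lists were -0.62, -0.05 and 0.43. Wild type replicates A and B had more pachytene marker RNA (281 and 297 CPM over 7 genes) than replicates C and D (149 and 175 CPM). The *Tra2b-cPEko* mice had between 166 and 216 CPM of it. Reads that the counting assigned to no annotated feature made up 12.4% to 12.8% of each wild type library and 13.2% to 13.6% of each *Tra2b-cPEko* library. Such reads can lie between genes or, if only exons were counted, in introns. The part of these differences in the results on the m6A genes was not tested. Log2 fold changes, counts of called genes and ratios between genes were also computed without each mouse, but marker sums and read shares were not. Leaving out a mouse cannot take out a difference that separates all mice of the genotypes.

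No m6A gene passed the test. The test was edgeR's quasi-likelihood F test on raw counts, and p-values were adjusted by Benjamini-Hochberg over the 19104 genes that passed a filter on low counts, all 10 members among them. With an adjusted p under 0.05, 0 of the 10 members were called higher and 0 lower in *Tra2b-cPEko* testes, against 0.157% of all genes tested (0.131% higher and 0.0262% lower). DESeq2 on the same counts called 0 of the 10, with adjusted p between 0.209 and 0.954 (2.79% of the genes it tested were called). At an unadjusted edgeR p under 0.05 there was 1 member, *Alkbh5*, or 10% of the list, where 15.3% of all genes had such a p. Log2 fold changes of *Tra2b-cPEko* over wild type lay between -0.09 and 0.09, with 3 values above 0 and 7 below. The median was -0.03 for the members and -0.0011 for all genes tested. It moved with single mice, to -0.048 without wild type replicate B, -0.039 without *Tra2b-cPEko* replicate D and -0.014 without wild type replicate D. In whole testes, fewer cells of a type and less RNA per cell cannot be told apart.

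The depth allowed narrow limits to be set on these differences in the whole testis. They set no such limits for germ cells alone, since somatic cells, which kept the exon, were counted with them. Each library held between 1401 and 12528 reads on each member, and standard errors of the log2 fold changes were between 0.036 and 0.053, with a median of 0.044 against 0.085 over all genes tested. The 95% confidence intervals of all 10 genes together reached from -0.19 to 0.18 on the log2 scale, or from -12.3% to 13.5% of the wild type level. All 10 intervals therefore lay inside a log2 change of 0.3 in either direction, which is close to the change of *Tra2b* itself (0.27, standard error 0.05). For *Tra2b* the adjusted p was 0.0552 from edgeR and 1.95e-04 from DESeq2, and it was below 0.05 in 6 of 16 alternatives, with a range from 1.95e-04 to 0.162.

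**Figure D1:**
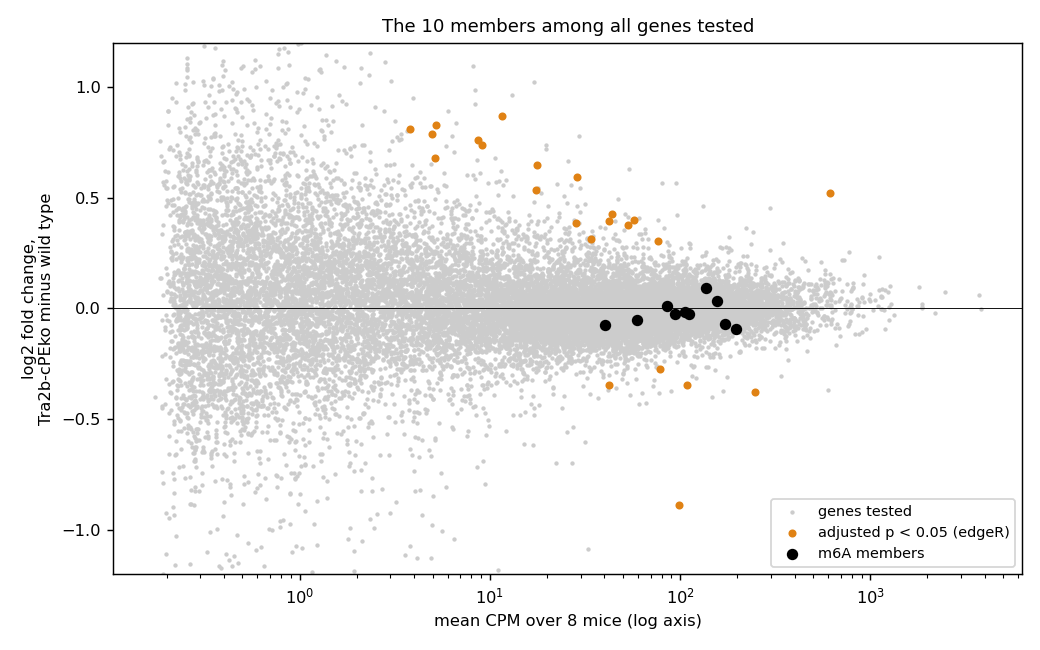
Log2 fold change (*Tra2b-cPEko* minus wild type) of 19104 genes against their mean CPM over 8 mice on a log axis, with the 10 m6A genes in black and genes with an adjusted p under 0.05 in orange. The members lie between -0.09 and 0.09, among the uncalled genes of like abundance, and 153 genes lie outside the limits of the vertical axis.

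The 4 writer genes were measured first. *Mettl3*, the catalytic subunit (chromosome 14 of GRCm39 from 52531551 to 52542608, minus strand), was at 42.4, 43.9, 41.0 and 38.9 CPM in wild type replicates A to D and at 38.9, 41.3, 39.3 and 38.2 CPM in *Tra2b-cPEko* replicates A to D. The genotypes overlapped, and the log2 fold change was -0.08 (standard error 0.05, 95% interval -0.19 to 0.04, adjusted p = 0.518). For *Mettl14*, its RNA-binding partner (chromosome 3 from 123154348 to 123179757, minus strand), the wild type mice had 62.8, 57.5, 61.8 and 58.97 CPM and the *Tra2b-cPEko* mice 56.5, 60.8, 57.1 and 57.9 CPM. Wild type replicate B was as low as the mutants, and the log2 fold change was -0.05 (standard error 0.05, interval -0.16 to 0.05, adjusted p = 0.612).

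*Wtap*, which anchors the catalytic pair in speckles (chromosome 17 from 13184295 to 13213056, minus strand), had 93.3, 89.1, 94.6 and 101 CPM in wild type and 93.8, 92.7, 89.4 and 95.8 CPM in *Tra2b-cPEko* mice. The highest and the lowest of its 8 values were both from wild type mice. Its log2 fold change was -0.02 (standard error 0.05, interval -0.12 to 0.08, adjusted p = 0.846). The zinc finger gene *Zc3h13* (chromosome 14 from 75521730 to 75583396, plus strand), which retains the complex in the nucleus, was the one writer with a higher mean in the mutants. Its levels were 130.1, 132, 130.5 and 136 CPM in wild type and 139, 146, 134 and 146 CPM in *Tra2b-cPEko* mice. Only *Tra2b-cPEko* replicate C lay below the highest wild type mouse, and the log2 fold change was 0.09 (standard error 0.04, interval -0.0011 to 0.18, adjusted p = 0.332). The exact test of the 8 mice gave p = 0.0571 for *Zc3h13* (two-sided permutation test over 70 arrangements, whose smallest p is 0.0286).

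**Figure D2:**
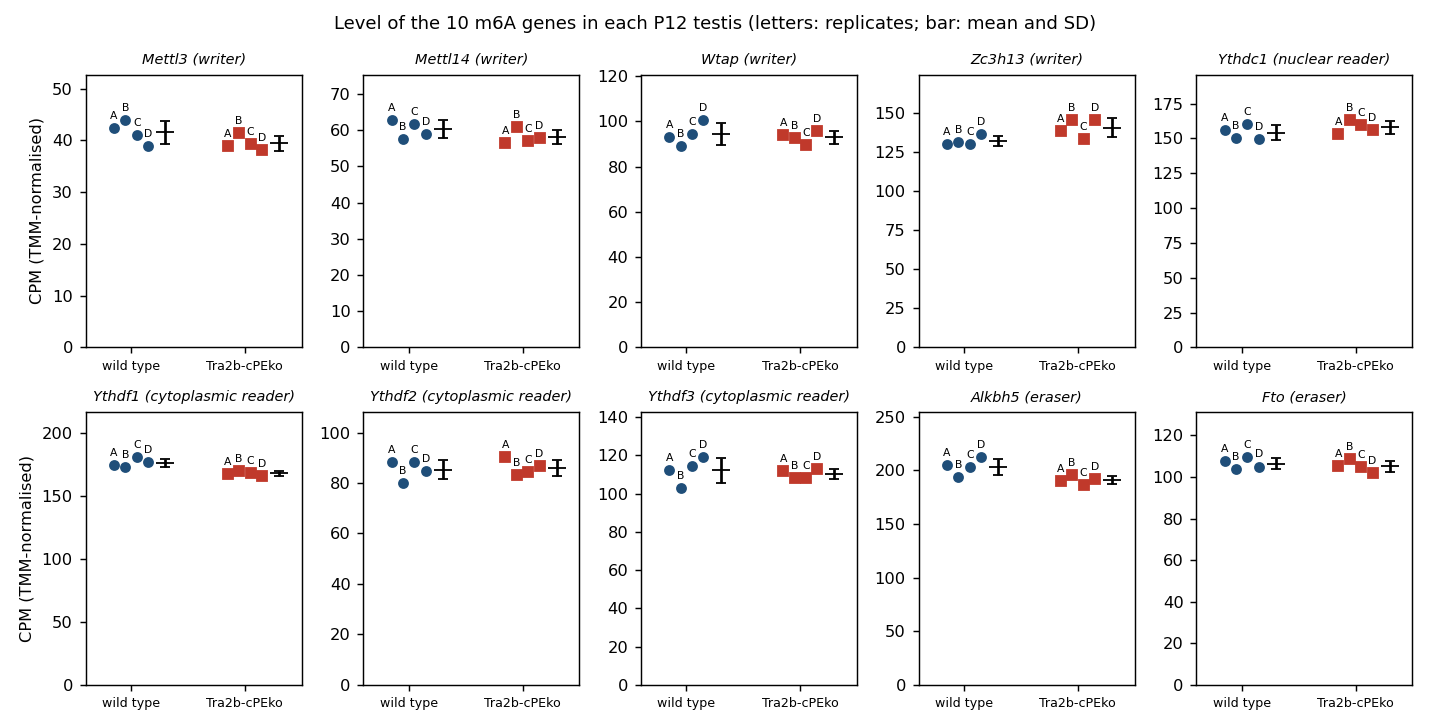
CPM of each m6A gene in each P12 testis, with axes from 0, wild type mice as blue circles, *Tra2b-cPEko* mice as red squares, letters for replicates, and bars for the mean and SD of 4 mice. The genotypes overlap in every panel except *Ythdf1*, where wild type mice are between 173 and 180.3 CPM and *Tra2b-cPEko* mice between 165 and 169.8 CPM.

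Among the readers, the nuclear reader *Ythdc1* (chromosome 5 from 86951957 to 86985080, plus strand) was at 156, 150.5, 161 and 149 CPM in wild type and 153, 163, 159 and 156 CPM in *Tra2b-cPEko* testes. Mutant replicate B lay above the wild type range and the other mutants inside it, with a log2 fold change of 0.03 (standard error 0.04, interval -0.06 to 0.12, adjusted p = 0.731). *Ythdf1* (chromosome 2 from 180546165 to 180562815, minus strand), a cytoplasmic reader linked to translation, was the only member without overlap. Its levels were 174, 173, 180.3 and 177 CPM in wild type and 167, 169.8, 168 and 165 CPM in *Tra2b-cPEko* mice. The gap between the lowest wild type and the highest mutant mouse was small, and the log2 fold change was -0.07 (standard error 0.04, interval -0.15 to 0.01, adjusted p = 0.384). The two-sided exact permutation test gave p = 0.0286 for *Ythdf1*, the smallest possible with 4 mice against 4. Thus 1 of 10 members did not overlap and was lower in the mutants, a share close to the 8.54% of all genes tested that did not overlap (4.18% lower and 4.36% higher in the mutants).

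*Ythdf2*, the paralogue best known for mRNA decay (chromosome 4 from 131911065 to 131939614, minus strand), had 88.2, 80.1, 88.2 and 84.7 CPM in wild type and 90.2, 83.1, 84.2 and 86.8 CPM in *Tra2b-cPEko* mice. The ranges were nearly the same, and the log2 fold change was 0.01 (standard error 0.05, interval -0.09 to 0.11, adjusted p = 0.922). *Ythdf3* (chromosome 3 from 16237297 to 16271201, plus strand) was at 112, 103, 114 and 119 CPM in wild type and at 112, 108, 108 and 113 CPM in the mutants. All 4 mutant values fell inside the wild type range, and the log2 fold change was -0.03 (standard error 0.05, interval -0.13 to 0.08, adjusted p = 0.838).

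The eraser *Alkbh5* (chromosome 11 from 60427207 to 60449346, plus strand), whose product removes m6A in the nucleus, had the lowest log2 fold change of the members. Its level was 205, 194, 203 and 212 CPM in wild type and 190.5, 195, 187 and 192 CPM in *Tra2b-cPEko* testes, so that mutant replicate B exceeded wild type replicate B and the groups overlapped by this one pair. The log2 fold change was -0.09 (standard error 0.04, interval -0.18 to -0.0037). Its unadjusted p was 0.0423 and its adjusted p 0.309 from edgeR's test, with an exact permutation p of 0.0571. *Fto*, the second demethylase (chromosome 8 from 92039953 to 92395070, plus strand), had 108, 104, 109 and 105 CPM in wild type and 105, 109, 105 and 102 CPM in the mutants. These ranges largely coincided, with a log2 fold change of -0.02 (standard error 0.04, interval -0.10 to 0.07, adjusted p = 0.867).

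Ratios between members were next taken within each library, since they do not depend on how libraries are scaled. The 3 ratios were tested with the two-sided exact permutation test on the log2 scale and adjusted together. Reads on *Mettl3* relative to its partner *Mettl14* were at 0.675, 0.765, 0.663 and 0.659 in wild type and 0.688, 0.680, 0.688 and 0.659 in *Tra2b-cPEko* mice. Wild type replicate B stood above the other 7 mice, which lay close together, and the log2 difference was -0.02 (95% interval -0.15 to 0.11, exact p = 0.914, adjusted 0.914). Without wild type replicate B the difference was 0.03 (adjusted exact p = 0.229).

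The 2 erasers gave a ratio of *Alkbh5* to *Fto* reads of 1.90, 1.87, 1.85 and 2.02 in wild type and 1.81, 1.80, 1.78 and 1.88 in the mutants. Mutant replicate D overlapped wild type replicates B and C, with a log2 difference of -0.07 (95% interval -0.15 to 0.0070, exact p = 0.0857, adjusted 0.214). *Ythdf2* reads relative to the sum of *Ythdf1* and *Ythdf3* were at 0.308, 0.291, 0.299 and 0.286 in wild type and 0.323, 0.299, 0.305 and 0.312 in *Tra2b-cPEko* mice. The log2 difference was 0.07 (95% interval -0.02 to 0.15, exact p = 0.143, adjusted 0.214), and none of the 3 ratios passed the test. Of all reads on the 3 YTHDF genes, *Ythdf1* took 47.1% ± 0.962 in wild type mice and 46.1% ± 0.903 in the mutants (SD, n = 4).

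**Figure D3:**
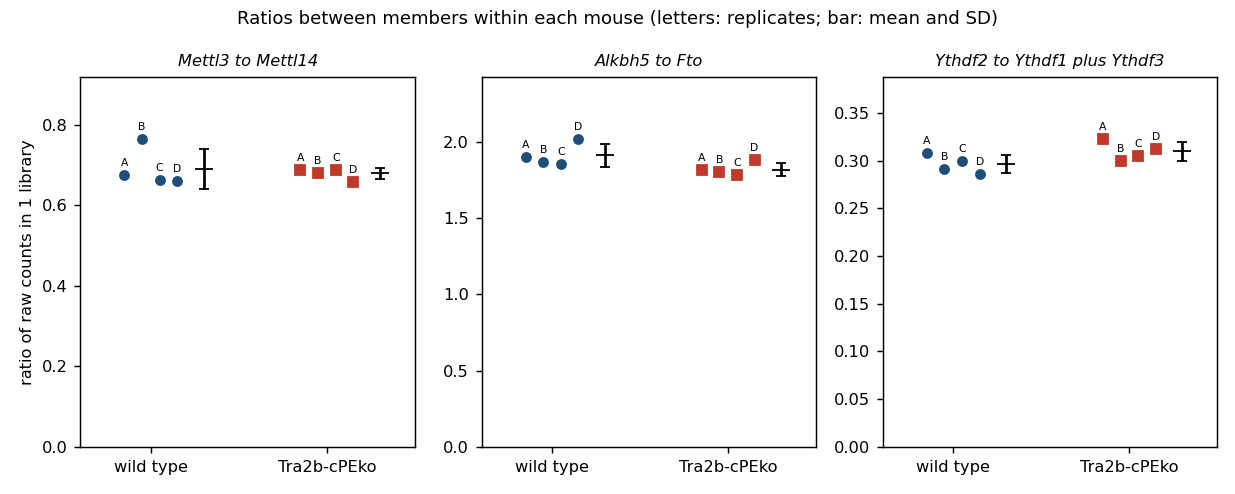
Ratio of raw counts between members within each library, for *Mettl3* to *Mettl14*, *Alkbh5* to *Fto*, and *Ythdf2* to *Ythdf1* plus *Ythdf3*, with axes from 0, letters for replicates and bars for the mean and SD of 4 mice. The genotypes overlap in all 3 panels, and wild type replicate B stands alone at 0.765 in the first.

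To compare the genes with each other, CPM was divided by gene length from GENCODE vM39. The authors' methods name the NCBI annotation of GRCm39, so the exons counted may differ from those measured. Length was first taken as the bases covered by any annotated exon. On this scale *Ythdf1* was highest in wild type testes, at 51.9 ± 0.995 CPM per kb (SD, n = 4), and *Alkbh5* followed at 32.2 ± 1.18. Then came *Zc3h13* (14.2 ± 0.315) and *Ythdf2* (14.1 ± 0.633), whose ranges over mice overlapped, *Wtap* (11.9 ± 0.600), and *Ythdc1* (10.5 ± 0.358) and *Ythdf3* (9.66 ± 0.581), which overlapped too. *Mettl14* (7.17 ± 0.294) and *Fto* (6.93 ± 0.166) also overlapped, and *Mettl3* was lowest at 6.14 ± 0.318 CPM per kb. All 10 members lay above the median of the 17369 genes with a length, from the 61.7th percentile (*Mettl3*) to the 97.2nd (*Ythdf1*).

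Most of this order depended on the length used. The exons of these genes come from 3 (*Alkbh5*) to 47 (*Mettl3*) annotated transcripts, and with the length of the canonical transcript, a choice made after seeing the data, *Wtap* was at 39.5, *Ythdc1* at 38.9, *Fto* at 28.3, *Mettl14* at 22.0, *Ythdf3* at 21.7 and *Mettl3* at 20.4 CPM per kb. *Ythdf2* was then lowest at 16.1, after *Zc3h13* at 17.0. *Ythdf1* was the highest under all 3 lengths tried, at 51.9, 52.6 and 54.0 CPM per kb. The methyltransferase pair changed order with the length, since *Mettl3* was below *Mettl14* by exon union and by canonical transcript and above it by longest transcript (10.6 against 8.17).

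**Figure D4:**
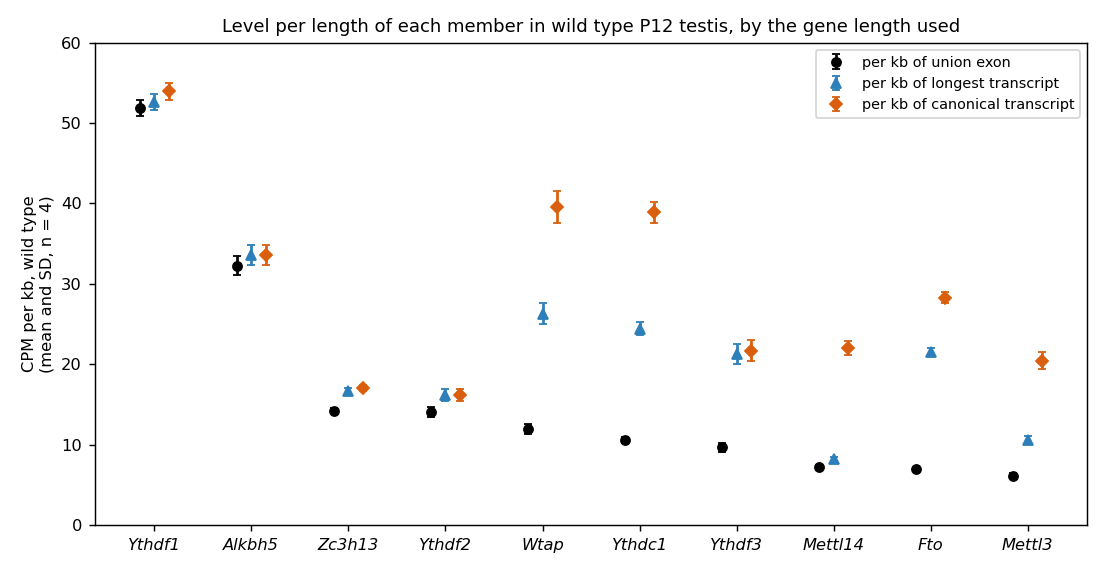
Level per length (CPM per kb, mean and SD of 4 wild type mice) of each m6A gene with 3 definitions of gene length, which are all annotated exon bases (black circles), the longest transcript (blue triangles) and the canonical transcript (orange diamonds). *Ythdf1* is highest throughout, while *Wtap*, *Ythdc1*, *Ythdf3*, *Fto*, *Mettl14* and *Mettl3* move upward by over 1.5 times with the canonical length.

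The members varied little from mouse to mouse. The coefficient of variation over 4 mice was between 1.92% (*Ythdf1*) and 6.01% (*Ythdf3*) in wild type and between 1.10% (*Ythdf1*) and 4.17% (*Zc3h13*) in *Tra2b-cPEko* mice. Medians were 3.88% and 2.84%, where the 5457 genes with a wild type mean in the members' range had medians of 5.51% and 3.85%. Counting error alone gives between 1.01% and 2.44% for these genes at the mean count of a genotype. Wild type replicate D had the highest value for 3 members, and wild type replicate B and *Tra2b-cPEko* replicate D each had the lowest value for 3.

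Some of the genes share reads or bases with others. *Wtap* has near-identical copies in *Gm14292*, *Gm7381* and *Gm75770*, and *Ythdf2* in *Gm6823* and *Gm8401*, so reads that map to a copy as well may be missing from their counts. Exons of *Mettl3* overlap *Tox4* on the other strand, those of *Mettl14* overlap *Sec24d*, and those of *Fto* overlap *Rpgrip1l*. *Wtap*, *Ythdc1* and *Ythdf3* overlap predicted genes, of which *Gm43055*, at *Ythdc1*, is on the same strand. Whether the counting used the strand is not given in the sources used here. Without it, reads of genes on opposite strands could not be told apart, and for *Gm43055* the strand would not help. *Zc3h13*, *Ythdf1* and *Alkbh5* have neither kind of partner. In RefSeq promoter windows of 300 bases on GRCm38.p6, found for 8 of the 10 members, the median GC content was 62.3% and the median number of CpG dinucleotides 28.2, against 52.8% and 7 over the 27025 genes with a window. Those genes were taken whatever their level in testis, and no comparison with genes of like level was made.

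A list of 27 other genes tied to the mark was measured alongside, and edgeR called 0 of the 27 in either direction, with 6 at an unadjusted p under 0.05 (22.2%, against 15.3% of all genes). DESeq2 called 2, both lower, where 1.14% of the genes it tested were called lower. The median log2 fold change of the list was -0.03, and 3 of the 27 (*Igf2bp3*, *Fxr1* and *Mat2b*) did not overlap between genotypes, all lower in the mutants, as were 4.18% of all genes tested. Further subunits of the writer complex (*Rbm15*, *Rbm15b*, *Virma*, *Cbll1*) had values between -0.03 and 0.11. Other adenosine methyltransferases and partners (*Mettl16*, *Mettl5*, *Trmt112*, *Zcchc4*, *Pcif1*, *Mettl4*) had values between -0.18 and -0.02, and genes of methyl donor supply between -0.12 and 0.04.

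**Figure D5:**
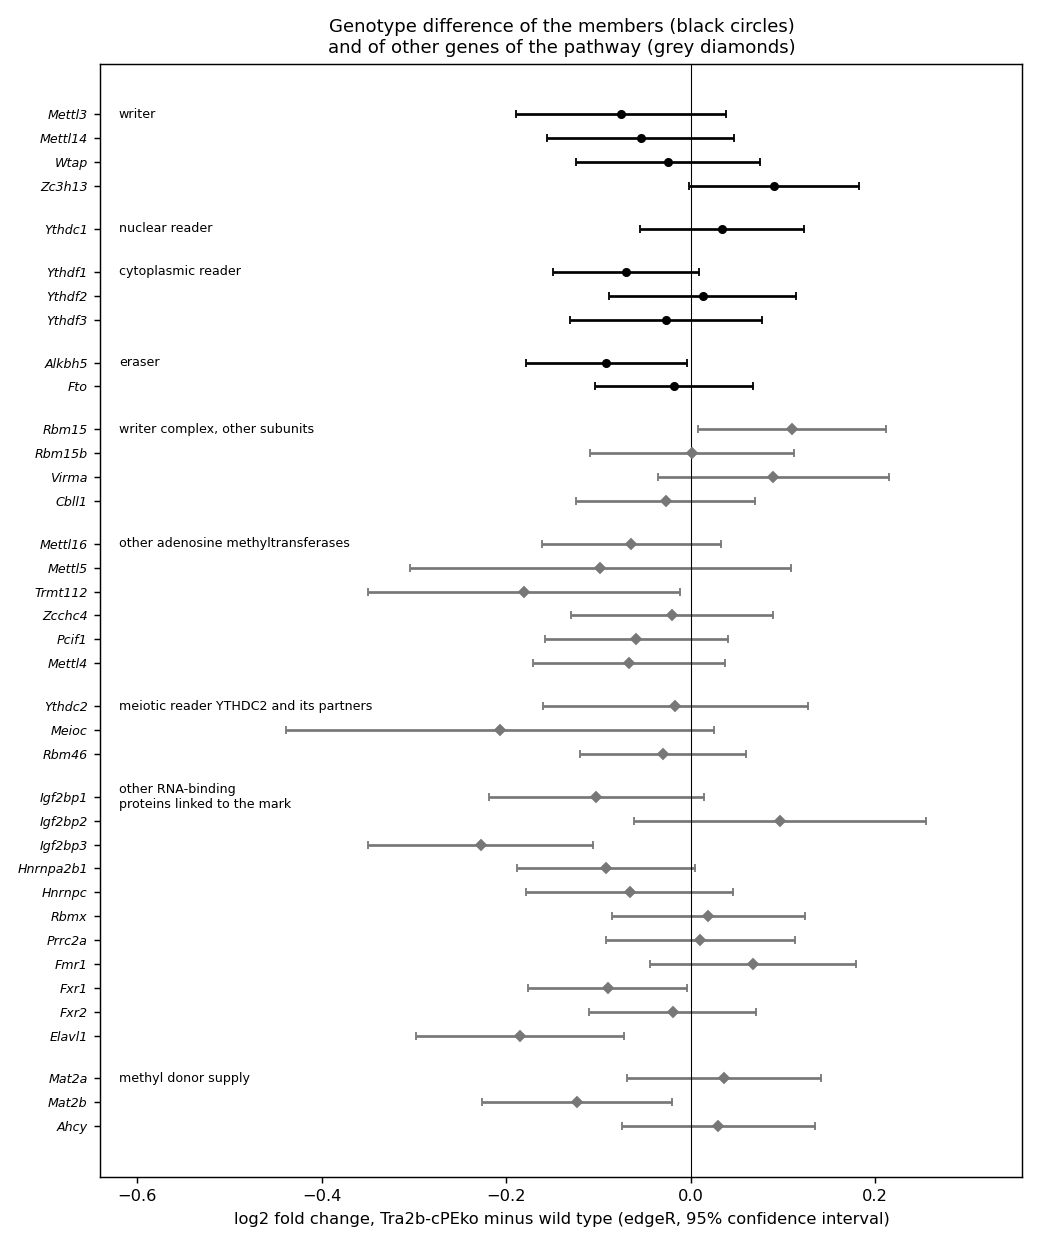
Log2 fold change (*Tra2b-cPEko* minus wild type) with its 95% confidence interval from edgeR for the 10 members (black circles) and 27 other genes of the pathway (grey diamonds), grouped by role. Intervals of the members stay between -0.19 and 0.18, and the values lowest among the other genes are those of *Igf2bp3* (-0.23) and *Meioc* (-0.21).

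The genes called by DESeq2 were *Igf2bp3* and *Elavl1*. *Igf2bp3*, an RNA-binding protein that stabilises m6A-marked mRNAs, was at 26.8, 25.4, 23.7 and 26.0 CPM in wild type and at 21.4, 21.6, 21.8 and 22.2 CPM in *Tra2b-cPEko* mice. Every mutant lay below every wild type mouse, with a log2 fold change of -0.23 (standard error 0.06, adjusted p = 0.112 from edgeR and 0.0135 from DESeq2). *Igf2bp3* overlaps exons of *Malsu1* on the other strand. *Elavl1*, whose product HuR binds and stabilises mRNAs, had 142, 141, 126 and 133 CPM in wild type and 129, 117, 117 and 113 CPM in the mutants. Here mutant replicate A overlapped wild type replicate C, with a log2 fold change of -0.18 (standard error 0.05, adjusted p = 0.144 from edgeR and 0.0486 from DESeq2). *Mat2b*, the regulatory subunit of the enzyme that makes S-adenosylmethionine, had the next smallest p, with 82.1 ± 4.46 CPM in wild type and 75.4 ± 1.84 CPM in *Tra2b-cPEko* testes (SD, n = 4; log2 fold change -0.12, adjusted p = 0.256 from edgeR). None of these genes was called by edgeR under any of the alternatives tried.

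The reader *Ythdc2* and its partner *Meioc*, which act together as germ cells enter and hold meiotic prophase, varied more than the members. *Meioc* was at 206, 174, 140.1 and 167 CPM in wild type and at 142, 162, 146 and 145 CPM in *Tra2b-cPEko* mice. The wild type values spanned the whole mutant range and the log2 fold change was -0.21 (standard error 0.10, interval -0.44 to 0.03, adjusted p = 0.38). *Ythdc2* had 113, 94.8, 95.2 and 93.3 CPM in wild type and 91.3, 98.7, 106 and 95.6 CPM in the mutants, with a log2 fold change of -0.02 (standard error 0.07, adjusted p = 0.932). For both genes the highest mouse was wild type replicate A, which also had the most leptotene and zygotene marker RNA (1470.2 CPM over 8 genes, against 1045 to 1301 CPM in the other wild type mice). Without that mouse the log2 fold change was -0.11 for *Meioc* and 0.05 for *Ythdc2*.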

How the data were processed

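Stranded, polyA-selected libraries of 8 whole testes had been read as paired ends and aligned with HISAT2, and the authors deposited one table of raw counts per library (counts of reads per gene, not normalised, with the 5 summary lines of htseq-count). HISAT2 2.2.1, SAMtools 1.7.1 and HTSeq 2.0.2 are named in the submitters' processing notes on GRCm39. The authors' methods also name Salmon, and whether counting used the strand is not given in the sources used here. The summary lines, between 31.0% and 33.6% of each library, were left out of library sizes and tests.

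Genes were filtered (edgeR filterByExpr, count of 10) and fitted on genotype alone with edgeR 4.0.16 (TMM factors, robust quasi-likelihood fit, R 4.3.3). CPM values of single genes used the TMM factors, and summed CPM of marker lists used the reads on genes of each library without them. DESeq2 1.42.0 and limma-voom (limma 3.58.1) were alternatives, as were other factors, filters and thresholds, a replicate block, and each mouse left out. Single values were tested by two-sided exact permutation over mice. Adjusted p-values are Benjamini-Hochberg over all genes tested, or over the 3 ratios. The code was tested on simulated data of 19104 genes, of which 200 were changed. At a log2 change of 0.3, edgeR found 29% of them with 4 false calls, and DESeq2 38% with 25 false calls.

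The members and the wider and marker gene lists were chosen with earlier results of these data known. Genes were named in full if they were members, the targeted gene, *Ythdc2*, *Meioc* or the 3 genes of smallest p in the wider list. Gene positions, lengths and overlaps come from GENCODE vM39, and copies from BLAST 2.17.0 (at least 95% identity over 50% of a transcript). The authors' methods name the NCBI annotation of GRCm39, whose exons may differ. Replicates are separate mice, and no litter or batch is named.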

Additional observations from a re-analysis of the deposited data

Results flagged for a closer look

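Of 38 groups of 4 mice tested for one mouse far from the other 3 (Dixon's test at the 95% level), 2 had one, where chance gives 1.9. *Ythdc2* stood at 113 CPM in wild type replicate A and between 93.3 and 95.2 CPM in the other wild type mice. The ratio of *Mettl3* to *Mettl14* reads stood at 0.765 in wild type replicate B and between 0.659 and 0.675 in the other wild type mice. In data outside the main measurement, the share of reads assigned to no annotated feature had a median of 13.5% in the *Tra2b-cPEko* libraries. It lay between 12.4% and 12.8% in the wild type libraries.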

How the results depend on the processing

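No member was called in any of the 17 alternatives, and the smallest adjusted p of a member was 0.209 (DESeq2, *Alkbh5*). Of 160 alternative log2 fold changes of the members, 155 kept their direction, and they lay between -0.11 and 0.11. The other 5 values belonged to 4 genes with values near 0. *Fto* was at 0.00032 with upper-quartile factors, and with one mouse left out *Wtap* lay between -0.0497 and 0.0047, *Ythdf2* between -0.0146 and 0.0284, and *Ythdf3* between -0.0639 and 0.00039. With upper-quartile factors the members' median was -0.0066 and that of all genes 0.017. *Ythdc2* was at 0.0019 with upper-quartile factors and between -0.0599 and 0.051 with one mouse left out. The log2 difference in the ratio of *Mettl3* to *Mettl14* lay between -0.0432 and 0.0282 with one mouse left out. DESeq2 called 2 genes of the wider list. The cause of these changes was not tested.

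The background count of 30 called genes was less stable. It was 58 with upper-quartile factors, 123 with no filter on low counts, 14 with a mean count of at least 50, 507 with DESeq2, 11 with limma-voom, 12 without robust estimation and 156 at a threshold of 0.1. With one mouse left out it lay between 3 (without *Tra2b-cPEko* replicate D) and 84 (without wild type replicate C), with 76 without *Tra2b-cPEko* replicate B, 10 without replicate A and 9 without replicate C of the mutants, and 9 without wild type replicate A or B. With the replicate letter as a block it was 67, with 0 members, although the letters did not pair the mice (correlations of deviations between -0.14 and 0.12). The 4 mice per genotype limit single-gene exact tests to p of at least 0.0286.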
